A study of Mus musculus with 9 samples.

Results

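The genes examined here encode the machinery that copies and repairs DNA in S phase, together with E2F transcription factors and the E-type cyclins. The list holds 55 gene symbols. A member was measured if a probe set of the array carried its symbol and no other, and the probe set with the highest mean stood for a member that had several. By this rule 53 of the 55 members were measured, of 22180 genes in all, and all 53 passed the filter on low values that left 17478 genes for testing. Rfc4 and Ccne2 share their probe sets with Eif4a2 and Ints8 and were kept apart. The members fall into 11 roles, from origin licensing to fork repair.

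RNA from frozen mammary tissue of 9 female FVB mice was measured, with 1 Mouse Gene 2.0 ST array per mouse. There were 3 metastatic mammary tumours and 3 non-metastatic mammary tumours, all from MMTV-Wnt1 mice labelled Wnt1+/-, and 3 normal mammary glands from control littermates labelled Wild-type Wnt1. The series design text, unlike the sample labels, gives MMTV-Wnt1 mice as the source of the normal glands too. The groups here follow the sample labels, and the Wnt1 levels of the glands are given with the array checks. MMTV is a viral promoter active mainly in mammary epithelium, and here it drives Wnt1, a secreted growth signal. From 6 weeks of age the mice of both genotypes drank 6% sucrose with doxycycline at 200 ug/ml, so the normal glands carry this treatment as well. Tumours were taken once they measured 20 mm, at 300, 281 and 284 days of age in the metastatic group and at 354, 222 and 298 days in the non-metastatic group. The normal glands came from mice 533, 556 and 538 days old. Age and tumour status therefore cannot be told apart in any comparison with normal gland. The titles call the mice of a group biological replicates. The study asked how metastatic and non-metastatic tumours of this model differ, with normal gland as the baseline.

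Before a cell copies its DNA, the origin recognition complex, Cdc6 and Cdt1 load the MCM helicase onto origins. In S phase the helicase is switched on by Mcm10, Cdc45 and the GINS complex, primase and the polymerases follow, and clamp, ligase and repair factors finish the strands. Most of these genes are transcribed late in G1 under E2F factors, which the retinoblastoma protein holds back in resting cells. Their RNA is therefore widely read as a sign of cycling cells, and in the mammary gland cycling is mostly a property of the epithelium.

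Promoters were read for the E2F-binding words TTTCCCGC, TTTCGCGC, TTTGCCGC and TTTGGCGC on both strands, in windows from 250 bases before to 50 bases after each annotated start (RefSeq, GRCm38.p6). Of the 55 members, 45 had at least 1 such window. An E2F word stood in 17 of these 45 (37.8%), against 704 of 27025 genes overall (2.6%). The 27025 are all genes with a window, whether measured here or not. Most members are of a kind already known to be under E2F factors, so these shares describe the list and are no test. The words were found in promoters of licensing genes (Orc1, Cdc6, Cdt1), MCM genes (Mcm3, Mcm5, Mcm6, Mcm7), polymerase genes (Pola1, Pole2, Pold1) and others. The letters CCAAT, bound by the factor NF-Y, stood in the windows of 62.2% of members and 41.06% of genes. The CHR letters TTTGAA, typical of genes expressed later in the cycle, stood in 15.6% of members and 20.23% of genes. Mcm2 had no E2F word in its window, Mcm4 had no window, and 1 of 2 Mcm7 windows held words. The MCM windows with E2F words are printed because all 6 MCM genes rose in tumours, Mcm2 and Mcm4 included, and their proteins form 1 complex. They run 5′ to 3′ on the gene's strand, and capitals mark the E2F words, read on either strand. In Mcm5 and Mcm6 words on opposite strands overlap and appear as 1 run of capitals. The windows are chr1:20820263-20820562 (minus strand) for Mcm3, chr8:75109259-75109558 (plus strand) for Mcm5, chr1:128359656-128359955 (minus strand) for Mcm6 and chr5:138171834-138172133 (minus strand) for Mcm7.
Mcm3: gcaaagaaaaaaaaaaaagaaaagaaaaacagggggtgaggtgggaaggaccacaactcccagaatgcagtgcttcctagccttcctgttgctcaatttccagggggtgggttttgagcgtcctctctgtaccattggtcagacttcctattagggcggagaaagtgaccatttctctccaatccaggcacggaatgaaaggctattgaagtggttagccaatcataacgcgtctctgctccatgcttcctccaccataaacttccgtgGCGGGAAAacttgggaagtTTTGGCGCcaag
Mcm5: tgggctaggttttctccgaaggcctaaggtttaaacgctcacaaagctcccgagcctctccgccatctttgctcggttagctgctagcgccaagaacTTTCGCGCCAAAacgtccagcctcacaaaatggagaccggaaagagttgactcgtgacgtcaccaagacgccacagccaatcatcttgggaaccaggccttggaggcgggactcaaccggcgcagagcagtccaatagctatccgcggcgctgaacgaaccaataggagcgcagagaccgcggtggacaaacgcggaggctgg
Mcm6: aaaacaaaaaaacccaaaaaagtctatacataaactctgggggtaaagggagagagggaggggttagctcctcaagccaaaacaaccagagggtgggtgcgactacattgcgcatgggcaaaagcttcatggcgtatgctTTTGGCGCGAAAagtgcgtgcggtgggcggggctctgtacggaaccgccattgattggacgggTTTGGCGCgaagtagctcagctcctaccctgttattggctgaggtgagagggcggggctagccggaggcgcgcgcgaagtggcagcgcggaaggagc
Mcm7: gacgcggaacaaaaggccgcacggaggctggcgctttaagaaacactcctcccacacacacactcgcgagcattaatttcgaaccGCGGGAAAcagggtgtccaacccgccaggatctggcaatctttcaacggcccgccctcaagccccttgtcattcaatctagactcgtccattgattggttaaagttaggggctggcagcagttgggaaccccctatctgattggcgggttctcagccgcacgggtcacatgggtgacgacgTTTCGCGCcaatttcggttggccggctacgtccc

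The Mcm3 window holds 2 E2F words after the start, from position 19 to 26 and from 38 to 45, counted from 0 at the annotated start. The Mcm6 window holds 3 before the start, at -110 to -103, -106 to -99 and -47 to -40. A match describes letters in a window, and binding was not measured. For the changes, all tumours were pooled and set against normal gland. The median log2 change was 0.86 over 17 measured members with a word, of which 12 passed the test as higher. It was 0.76 over 27 measured members with a window but no word, of which 17 passed as higher. Of all genes tested, 13.6% passed as higher. Measured members without a window are in neither count.

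All values are log2 levels from the deposited table, made by the submitters with RMA, so a difference of 1 is a doubling of signal. Levels of different genes are not compared, since each probe set has its own scale. Array medians lay between 5.80 and 5.94, and arrays correlated with each other at 0.831 to 0.976 across genes. Wnt1, the transgene, had 12.02, 11.20 and 12.04 in metastatic tumours and 12.40, 11.85 and 11.80 in non-metastatic tumours, against 5.61, 5.45 and 5.71 in normal glands. All 6 tumours lay far above all 3 glands, which goes with the genotypes on the sample labels. The mean level of 13 epithelial markers was 10.41, 9.78 and 10.12 in metastatic tumours and 10.18, 10.28 and 9.91 in non-metastatic tumours, against 9.21, 8.50 and 9.57 in normal glands. The mean level of 11 adipocyte markers was 6.78, 7.20 and 7.06 in metastatic tumours and 7.94, 6.50 and 6.75 in non-metastatic tumours, against 11.81, 12.06 and 11.06 in normal glands. Normal gland 2 stood apart from every other array in skeletal muscle markers (9.71, against 5.65 to 7.73 elsewhere) and in markers of differentiated epidermis (10.15, against 5.90 to 8.01 elsewhere).

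DNA replication and repair genes were higher in Wnt1 tumours than in normal gland, and no member was called lower. Against normal gland, 34 of 53 members rose in all 6 tumours pooled, where 13.6% of all 17478 genes rose, and 0 fell, where 9.13% fell. The median change of the members was 0.78 on the log2 scale, against 0.04 over all genes, and 52 of 53 changes were positive. A call is an adjusted p under 0.05 in limma, with Benjamini-Hochberg adjustment over all genes tested. The 6 tumours lay above all 3 normal glands in 24 members, against 15.7% of all genes.

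These calls depend on which glands stand for normal tissue. Without normal gland 1 only Blm, Fancd2 and Rrm1 remained called (3 members, where 11.4% of all genes were called in either direction). Without normal gland 2 Blm, Dut, Fancd2 and Rrm1 remained (4 members, where 10.9% of all genes were called). Without normal gland 3 the count was 44, where 23.6% of all genes were called. Leaving out 1 tumour gave 20 calls without metastatic tumour 1 (16.1% of all genes), 22 without metastatic tumour 3 (16.1%), 22 without non-metastatic tumour 2 (18.6%) and 22 without non-metastatic tumour 3 (21.4%). It gave 28 without metastatic tumour 2 (19.6% of all genes) and 28 without non-metastatic tumour 1 (22.2%). The median change stayed between 0.64 and 1.05 in these fits. Blm, Fancd2 and Rrm1 were called in all 20 refits of this comparison.

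Taken separately, metastatic tumours had 11 members higher than normal gland and 0 lower, where 7.35% of all genes were higher and 6% lower, and the median change was 0.70 against 0.04 over all genes. The 11 were Orc6, Mcm3, Mcm4, Mcm10, Pole2, Pold2, Rrm1, Dut, E2f8, Blm and Fancd2. Non-metastatic tumours had 29 members higher and 0 lower, where 11.2% of all genes were higher and 7.6% lower, with a median change of 0.91 against 0.05 over all genes. Both comparisons share the same 3 normal glands. Groups did not overlap, with tumours above, in 25 members for metastatic tumours (23.2% of all genes) and in 44 for non-metastatic tumours (21.9% of all genes). For metastatic tumours the count of calls was 0 without metastatic tumour 1, normal gland 1 or normal gland 2, where 3.59%, 4.54% and 4.93% of all genes were called in either direction. It was 1 without metastatic tumour 3 (3.66% of all genes), 4 without metastatic tumour 2 (6.12%), 4 without non-metastatic tumour 2 (11.6%), 7 without non-metastatic tumour 1 (12.1%) and 34 without normal gland 3 (16.2%). For non-metastatic tumours it was 1 without normal gland 1 (7.7% of all genes) and 2 without normal gland 2 (8.68%). It was 8 without non-metastatic tumour 2 (8.72%), 10 without non-metastatic tumour 3 (14.7%) and 19 without metastatic tumour 3 (13.6%). Not every left-out array is listed for either comparison, and the full ranges of the member counts are given further on. For non-metastatic tumours the highest count exceeds those listed here. Calls over all genes thus moved with the left-out array as well. The larger count in non-metastatic tumours is no test of a difference between the tumour groups, which is given further on.

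**Figure D1:**
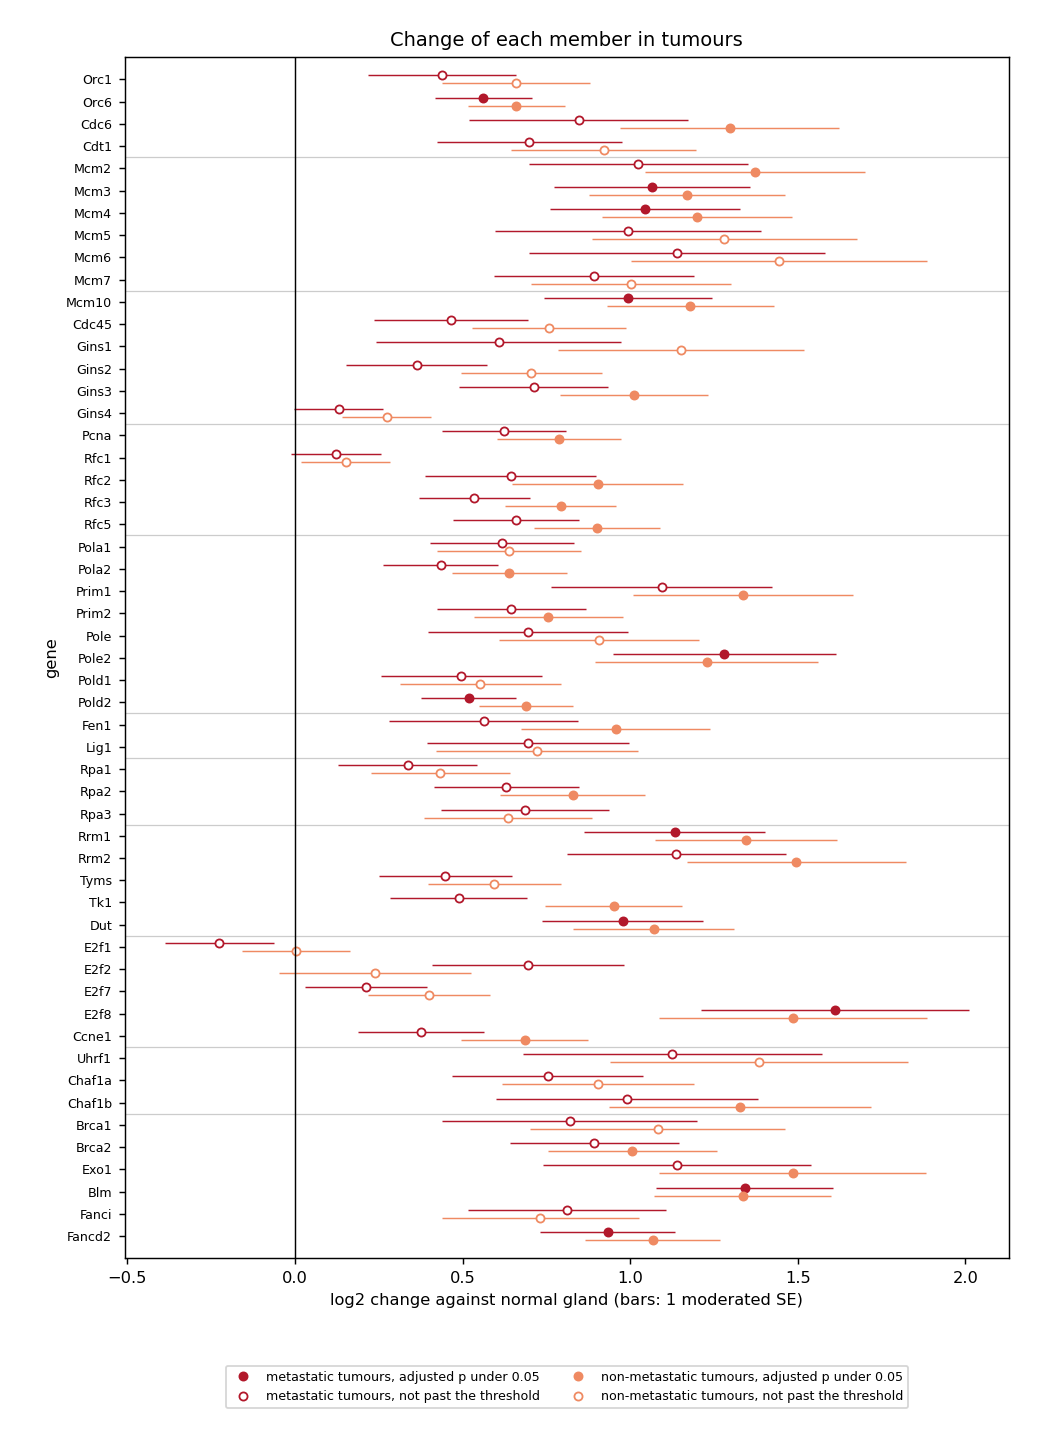
Change of each of the 53 measured members in metastatic tumours (dark red) and non-metastatic tumours (orange) against normal gland, on the log2 scale. Points are fitted changes, bars are 1 moderated SE, and filled points passed an adjusted p under 0.05 in limma. All changes but that of E2f1 in metastatic tumours lie right of 0, with 11 filled points for metastatic and 29 for non-metastatic tumours.

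Among the licensing genes, 3 of 4 rose in all tumours, with a median change of 0.71. Beside this count and that of each role below, 13.6% of all genes rose in all tumours. Cdc6, an ATPase that helps load the MCM ring, had 7.78, 6.99 and 6.98 in metastatic tumours and 7.40, 7.74 and 7.96 in non-metastatic tumours, against 5.94, 6.23 and 7.04 in normal glands. Metastatic tumours 2 and 3 lay just below normal gland 3, and the other tumours above every gland. The change was 1.07 (SE 0.28, adjusted p = 0.0299). Orc6, a subunit of the origin recognition complex, had 8.15, 7.91 and 7.93 in metastatic tumours and 7.89, 8.07 and 8.32 in non-metastatic tumours, against 7.32, 7.36 and 7.62 in normal glands, with every tumour above every gland and a change of 0.61 (SE 0.13, adjusted p = 0.0131). Cdt1, the partner of Cdc6 in loading, rose by 0.81 (SE 0.24, adjusted p = 0.0439), while Orc1, the ATPase subunit of the complex, differed by 0.55 (SE 0.19, adjusted p = 0.0721). Without normal gland 1 or normal gland 2, 0 of the 4 were called, and without any 1 tumour 1 or 2 were.

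All 6 subunits of the MCM helicase rose in all tumours against normal gland, with changes from 0.95 to 1.29 and a median of 1.13. Mcm6 (probe set 17226550) had 9.73, 8.82 and 9.33 in metastatic tumours and 9.26, 9.48 and 10.06 in non-metastatic tumours, against 8.05, 7.33 and 9.08 in normal glands. Normal gland 3 lay above metastatic tumour 2, and glands 1 and 2 lay below every tumour. The change was 1.29 (SE 0.38, adjusted p = 0.0443). Mcm3 had 9.28, 8.82 and 8.89 in metastatic tumours and 8.82, 8.91 and 9.57 in non-metastatic tumours, against 7.75, 7.54 and 8.51 in normal glands, and Mcm4 had 9.66, 9.23 and 9.31 in metastatic tumours and 9.21, 9.44 and 10.02 in non-metastatic tumours, against 8.10, 8.06 and 8.91 in normal glands. Both separated tumours from glands completely, with changes of 1.12 (SE 0.25, adjusted p = 0.0177) and 1.12 (SE 0.25, adjusted p = 0.016). Mcm2 also separated them and changed by 1.20 (SE 0.28, adjusted p = 0.0205). Mcm7 did so narrowly, with 9.10 in metastatic tumour 2 and 9.00 in normal gland 3, and changed by 0.95 (SE 0.26, adjusted p = 0.0338). Mcm5 changed by 1.14 (SE 0.34, adjusted p = 0.0468), with metastatic tumour 2 below normal gland 3. The widest spread was among the glands: the mean deviation of the 6 genes from their 9-array means was -0.97, -1.25 and -0.04 in normal glands 1, 2 and 3. No MCM gene was called without normal gland 1 or without normal gland 2, and 3 to 5 of the 6 were called without any 1 tumour.

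Of 6 genes that switch the helicase on, 2 rose in all tumours, with a median of 0.74 for the group. Mcm10, which joins the helicase as it fires, had 7.73, 6.90 and 7.10 in metastatic tumours and 7.29, 7.46 and 7.54 in non-metastatic tumours, against 6.11, 5.96 and 6.68 in normal glands. Tumours and glands did not overlap, and the change was 1.09 (SE 0.22, adjusted p = 0.0116). Gins3, a GINS subunit, rose by 0.86 (SE 0.19, adjusted p = 0.0168). The other subunits were not called: Gins1 changed by 0.88 (SE 0.32, adjusted p = 0.0811), Gins2 by 0.53 (SE 0.18, adjusted p = 0.0693) and Gins4 by 0.20 (SE 0.11, adjusted p = 0.243). Cdc45, the third partner of the active helicase, changed by 0.61 (SE 0.20, adjusted p = 0.059). Gins4 had 9.20, 8.86 and 9.04 in metastatic tumours and 8.94, 9.30 and 9.29 in non-metastatic tumours, against 8.91, 8.87 and 8.93 in normal glands, the narrowest span of gland values in the list. Neither Mcm10 nor Gins3 was called without normal gland 1 or without normal gland 2.

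The sliding clamp and its loader gave 4 calls among 5 measured genes, with a median of 0.71. Pcna, the clamp that tethers polymerases to DNA, had 10.95, 10.53 and 10.61 in metastatic tumours and 10.60, 10.88 and 11.10 in non-metastatic tumours, against 9.94, 9.93 and 10.35 in normal glands. Every tumour lay above every gland, and the change was 0.71 (SE 0.16, adjusted p = 0.0177). Of the loader subunits, Rfc2, Rfc3 and Rfc5 rose by 0.77 (SE 0.22, adjusted p = 0.039), 0.66 (SE 0.14, adjusted p = 0.0154) and 0.78 (SE 0.16, adjusted p = 0.0137). Rfc1, the large subunit, had 9.01, 8.73 and 8.84 in metastatic tumours and 8.66, 9.05 and 8.96 in non-metastatic tumours, against 8.66, 8.72 and 8.84 in normal glands. Its tumours and glands overlapped and its change was 0.14 (SE 0.12, adjusted p = 0.432). Without normal gland 1 or normal gland 2 no gene of this group was called, and 3 or 4 were without any 1 tumour.

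Polymerase and primase genes gave 6 calls among 8, with a median of 0.66. Pole2, the second subunit of the leading-strand polymerase epsilon, had 8.56, 7.91 and 8.20 in metastatic tumours and 7.48, 8.43 and 8.60 in non-metastatic tumours, against 6.57, 6.88 and 7.38 in normal glands. All tumours lay above all glands, although non-metastatic tumour 1 exceeded normal gland 3 only narrowly, and the change was 1.25 (SE 0.29, adjusted p = 0.0185). Prim1, the catalytic subunit of primase, had 9.25, 8.16 and 8.71 in metastatic tumours and 8.72, 8.92 and 9.21 in non-metastatic tumours, against 7.40, 7.23 and 8.20 in normal glands, with metastatic tumour 2 just below normal gland 3 and a change of 1.22 (SE 0.28, adjusted p = 0.0199). Prim2, Pola1, Pola2 and Pold2 rose by 0.70 (SE 0.19, adjusted p = 0.0343), 0.63 (SE 0.19, adjusted p = 0.0443), 0.54 (SE 0.15, adjusted p = 0.035) and 0.60 (SE 0.12, adjusted p = 0.0121). They encode the other primase subunit, both polymerase alpha subunits and the accessory subunit of polymerase delta. The catalytic subunits of polymerases epsilon and delta, Pole and Pold1, changed by 0.80 (SE 0.26, adjusted p = 0.0572) and 0.52 (SE 0.21, adjusted p = 0.106) and were not called. None of the 8 was called without normal gland 1 or without normal gland 2, while all 8 were without normal gland 3, and 3 to 5 without any 1 tumour.

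Neither gene of lagging-strand maturation passed the test in all tumours. Fen1, the nuclease that trims flaps, had 6.92, 6.23 and 6.47 in metastatic tumours and 6.84, 6.92 and 7.05 in non-metastatic tumours, against 5.94, 5.44 and 6.56 in normal glands, and Lig1, the ligase that joins the fragments, had 8.57, 7.90 and 8.04 in metastatic tumours and 7.92, 8.01 and 8.67 in non-metastatic tumours, against 7.30, 7.11 and 8.01 in normal glands. In both, normal gland 3 reached the range of the tumours, and the changes were 0.76 (SE 0.24, adjusted p = 0.057) and 0.71 (SE 0.26, adjusted p = 0.0857). Fen1 rose in non-metastatic tumours alone against normal gland, by 0.96 (SE 0.28, adjusted p = 0.0494). Of the 3 subunits of RPA, which coats single-stranded DNA, Rpa2 rose by 0.73 (SE 0.19, adjusted p = 0.0272). Rpa1 and Rpa3 changed by 0.38 (SE 0.18, adjusted p = 0.16) and 0.66 (SE 0.22, adjusted p = 0.0608). The call of Rpa2 was lost without normal gland 1, normal gland 2 or non-metastatic tumour 2, and that of Fen1 in non-metastatic tumours without any 1 array other than normal gland 3.

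Deoxynucleotide supply gave 4 calls among 5 genes, with a median of 1.02. Rrm1 and Rrm2 encode the subunits of ribonucleotide reductase, which makes deoxynucleotides. Rrm1 (probe set 17481102) had 10.46, 9.64 and 9.73 in metastatic tumours and 9.84, 10.14 and 10.50 in non-metastatic tumours, against 8.69, 8.58 and 9.18 in normal glands. Every tumour exceeded every gland, and the change was 1.24 (SE 0.23, adjusted p = 0.00961). Rrm2 had 8.33, 7.70 and 7.57 in metastatic tumours and 8.22, 7.96 and 8.49 in non-metastatic tumours, against 6.27, 6.49 and 7.43 in normal glands, again without overlap, and changed by 1.32 (SE 0.28, adjusted p = 0.0152). Dut, which removes dUTP, had 8.60, 8.49 and 8.39 in metastatic tumours and 8.29, 8.49 and 8.99 in non-metastatic tumours, against 7.46, 7.13 and 7.97 in normal glands and rose by 1.02 (SE 0.21, adjusted p = 0.0124). Tk1, the thymidine salvage kinase, rose by 0.72 (SE 0.18, adjusted p = 0.0235). Tyms, which makes thymidylate, changed by 0.52 (SE 0.17, adjusted p = 0.0624) and was not called. Without normal gland 1, Rrm1 alone stayed called, and without normal gland 2, Rrm1 and Dut.

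**Figure D2:**
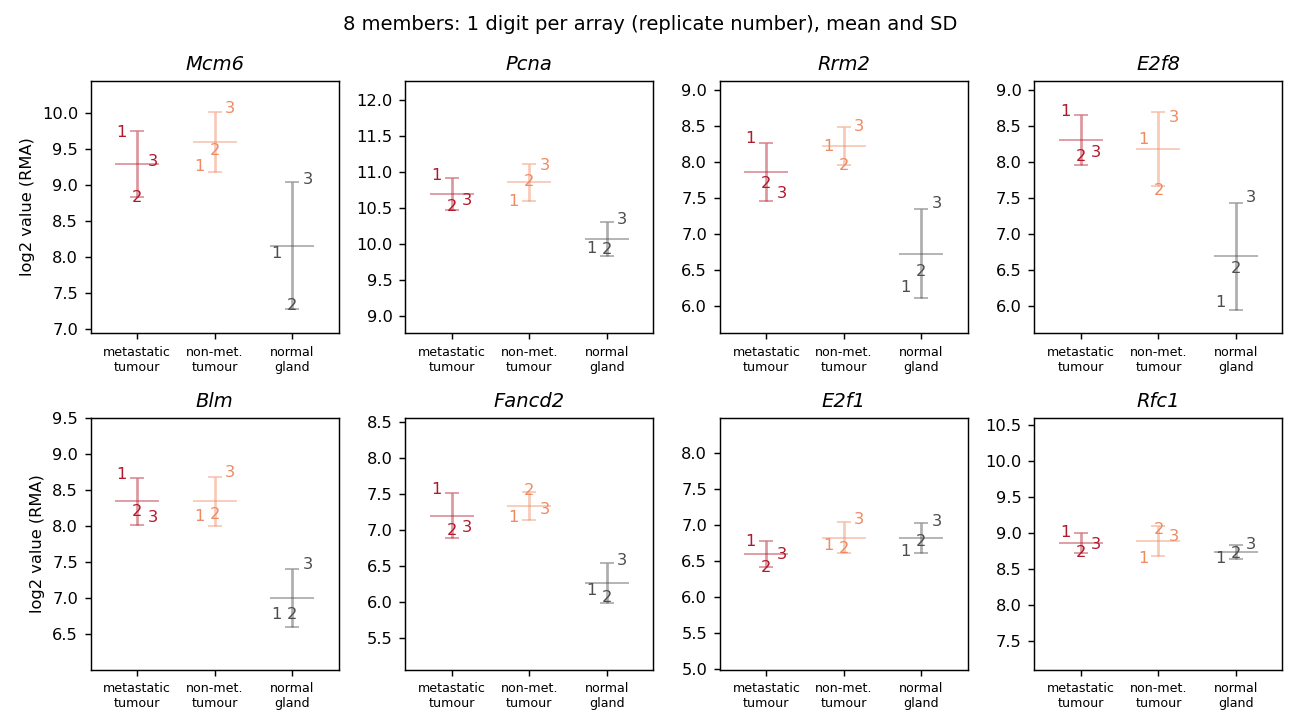
Log2 values of 8 members in the 9 arrays, with metastatic tumours left, non-metastatic tumours in the middle and normal glands right. Digits are replicate numbers, set slightly apart sideways, and lines give the mean and SD of 3 arrays. In Mcm6, Pcna, Rrm2, E2f8, Blm and Fancd2 the group means of the tumours exceed that of the glands, with normal gland 3 nearest to the tumours, while E2f1 and Rfc1 overlap throughout.

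Of 5 E2F and cyclin E genes 1 rose in all tumours, where 13.6% of all genes rose, and the median was 0.47 with 4 of 5 changes positive. E2f8, an atypical E2F that represses transcription, had 8.70, 8.07 and 8.13 in metastatic tumours and 8.31, 7.61 and 8.61 in non-metastatic tumours, against 6.04, 6.52 and 7.50 in normal glands. All tumours exceeded all glands, non-metastatic tumour 2 only narrowly above normal gland 3. Its change of 1.55 (SE 0.35, adjusted p = 0.0168) was the largest of the 53 members. E2f7, its close relative and also a repressor, had 7.05, 6.54 and 6.72 in metastatic tumours and 6.89, 6.74 and 7.25 in non-metastatic tumours, against 6.54, 6.40 and 6.74 in normal glands, with a change of 0.31 (SE 0.16, adjusted p = 0.2). E2f1, the best known activator, had 6.77, 6.40 and 6.59 in metastatic tumours and 6.71, 6.67 and 7.06 in non-metastatic tumours, against 6.62, 6.77 and 7.04 in normal glands. The groups overlapped fully and the change was -0.11 (SE 0.14, adjusted p = 0.613), the only negative value in the list, with the sign turned in 2 of 20 refits. E2f2, another activator, had 7.81, 6.94 and 6.54 in metastatic tumours and 6.62, 6.62 and 6.69 in non-metastatic tumours, against 6.17, 6.47 and 6.57 in normal glands, where metastatic tumour 1 stood alone at the top, and changed by 0.47 (SE 0.25, adjusted p = 0.214). Ccne1, cyclin E1, had 7.12, 6.80 and 6.63 in metastatic tumours and 7.24, 7.10 and 7.13 in non-metastatic tumours, against 6.09, 6.74 and 6.59 in normal glands. Its change was 0.53 (SE 0.16, adjusted p = 0.0505) in all tumours, with normal gland 2 inside the metastatic range, and 0.69 (SE 0.19, adjusted p = 0.0402) in non-metastatic tumours, past the threshold. The call of E2f8 was lost without normal gland 1 or normal gland 2, and that of Ccne1 in non-metastatic tumours without any 1 array other than metastatic tumour 1 and normal gland 2.

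All 3 genes that rebuild chromatin behind the fork rose in all tumours, with a median of 1.16. Uhrf1, which brings the maintenance DNA methyltransferase to new DNA, had 8.77, 8.03 and 8.12 in metastatic tumours and 8.30, 8.34 and 9.07 in non-metastatic tumours, against 6.80, 6.53 and 8.22 in normal glands. Chaf1b, a subunit of the histone chaperone CAF-1, had 8.96, 8.14 and 8.45 in metastatic tumours and 9.08, 8.51 and 8.97 in non-metastatic tumours, against 7.27, 6.90 and 8.42 in normal glands. Normal gland 3 lay above metastatic tumours 2 and 3 in Uhrf1 and above metastatic tumour 2 in Chaf1b. The changes were 1.26 (SE 0.39, adjusted p = 0.0498) for Uhrf1, 1.16 (SE 0.34, adjusted p = 0.0417) for Chaf1b and 0.83 (SE 0.25, adjusted p = 0.045) for Chaf1a, the large CAF-1 subunit. All 3 adjusted p-values were near the threshold, and the count fell to 0 or 1 when any 1 array other than normal gland 3 was left out.

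Replication-coupled repair gave 4 calls among 6 genes, with a median of 0.98. Blm, a helicase that unwinds recombination intermediates, had 8.72, 8.20 and 8.12 in metastatic tumours and 8.13, 8.16 and 8.74 in non-metastatic tumours, against 6.78, 6.77 and 7.47 in normal glands. Tumours and glands did not overlap, and the change of 1.34 (SE 0.23, adjusted p = 0.0073) had the lowest adjusted p of the list. Fancd2, which marks blocked forks, had 7.57, 7.00 and 7.05 in metastatic tumours and 7.18, 7.55 and 7.30 in non-metastatic tumours, against 6.17, 6.06 and 6.59 in normal glands, also without overlap, and changed by 1.00 (SE 0.17, adjusted p = 0.00761). Fanci, its binding partner, changed by 0.77 (SE 0.26, adjusted p = 0.0628) and was not called, although all tumours lay above all glands. Exo1, a nuclease of mismatch and break repair, rose by 1.31 (SE 0.35, adjusted p = 0.0296), and Brca2, which loads the recombinase, by 0.95 (SE 0.22, adjusted p = 0.0185). Brca1, which acts earlier in the same pathway, had 7.27, 6.39 and 6.78 in metastatic tumours and 6.78, 6.90 and 7.54 in non-metastatic tumours, against 5.75, 5.45 and 6.78 in normal glands. Normal gland 3 lay inside the range of the tumours, and the change was 0.95 (SE 0.33, adjusted p = 0.0722). Blm and Fancd2 stayed called without any 1 array, while Exo1 and Brca2 were not called without normal gland 1 or without normal gland 2. Exo1 was also lost without metastatic tumour 1 or 3, or without non-metastatic tumour 2 or 3.

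Arrays of 1 group differed in the level of the members. The mean deviation of the 53 members from their 9-array means was 0.50, -0.03 and 0.09 in metastatic tumours and 0.18, 0.28 and 0.64 in non-metastatic tumours, against -0.75, -0.81 and -0.09 in normal glands. Normal gland 3 was the highest gland in 52 of 53 members, Ccne1 being the exception. It was above metastatic tumour 2 in 25 members, and metastatic tumour 2 was the lowest tumour in 31. Non-metastatic tumour 3 was the highest tumour in 38 members and exceeded normal gland 3 in all 53. Metastatic tumour 1 was the highest tumour in 7 members. In each of the 11 roles normal gland 3 had the highest mean of the glands, as the plot of members by array shows.

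**Figure D3:**
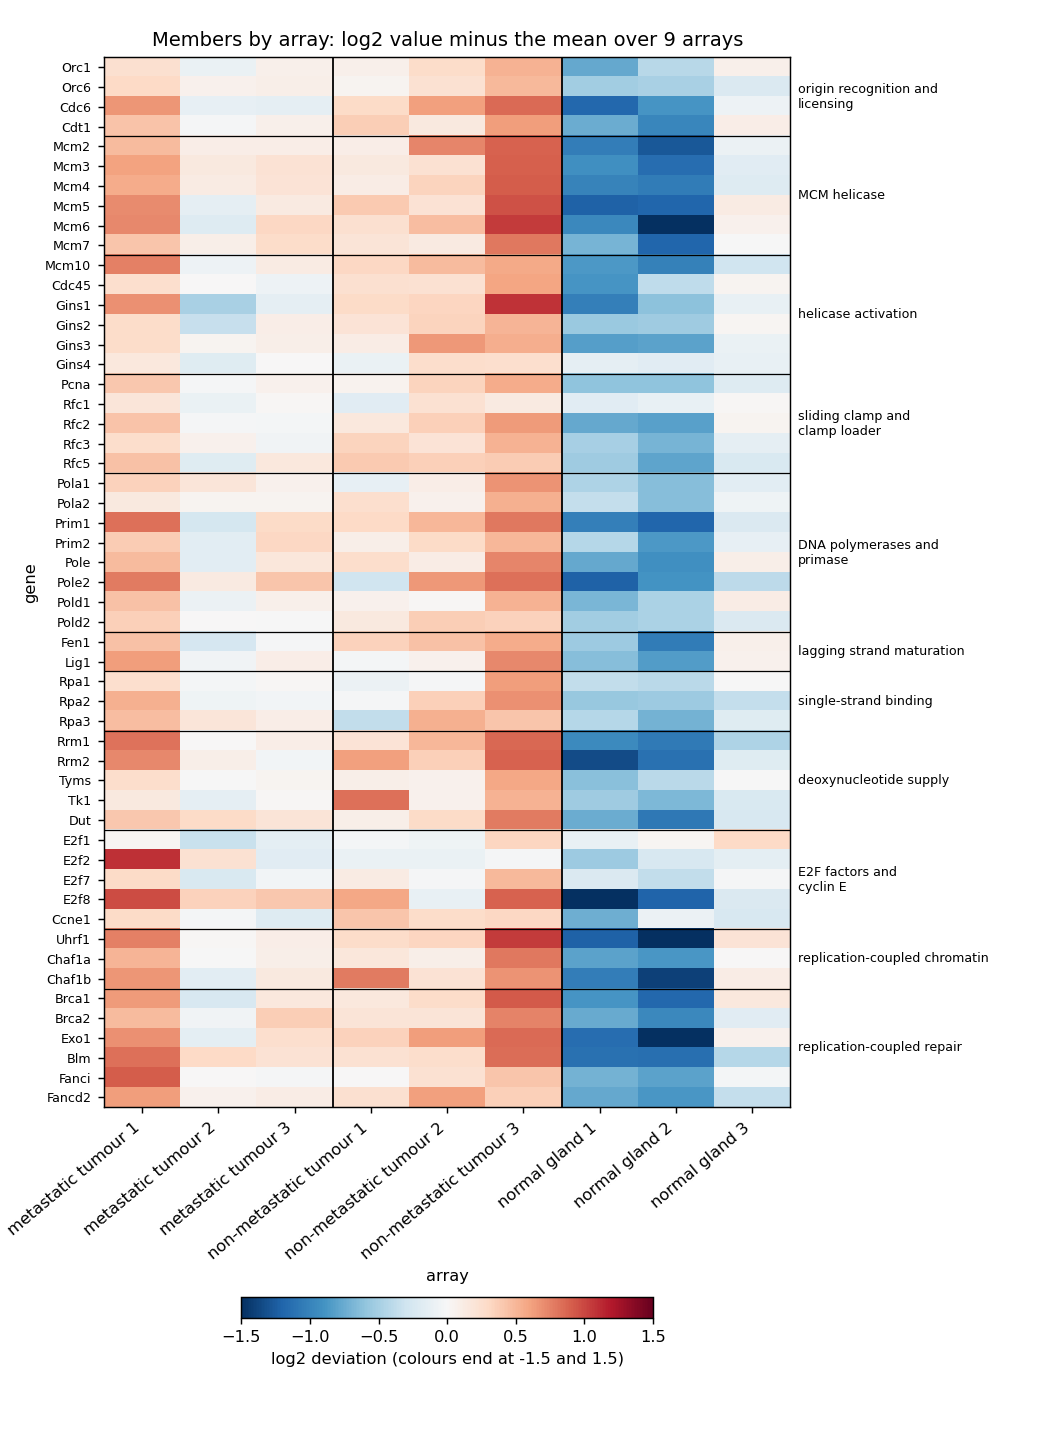
Log2 value of each of the 53 members minus its mean over 9 arrays, with columns for metastatic tumours, non-metastatic tumours and normal glands, and rows grouped by role. Normal glands 1 and 2 are blue in nearly all rows, normal gland 3 is near white, and non-metastatic tumour 3 and metastatic tumour 1 are the reddest columns.

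Within a group the members varied more than genes in general. The median SD of a member over 3 arrays was 0.27 in the metastatic group, where it was 0.14 over all genes tested. In the non-metastatic group these medians were 0.28 and 0.19, and among normal glands 0.41 and 0.19. Normal gland 3 exceeded the mean of glands 1 and 2 by a median of 0.67 over the members. The mean of the 6 tumours exceeded that of normal glands 1 and 2 by a median of 1.05 and exceeded normal gland 3 by a median of 0.36, with 52 of 53 differences above 0 in the last. These differences describe single arrays and carry no test.

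Metastatic and non-metastatic tumours were not told apart by these genes. Of 53 members 0 passed the adjusted threshold in limma, where 0.00572% of all genes (1 gene) did, and 0 members had an unadjusted p under 0.05, where 5.07% of all genes had. The tumour groups overlapped in every member, where 10.3% of all genes did not overlap. The changes, metastatic minus non-metastatic, were negative in 47 members and positive in 6, with a median of -0.20 against -0.02 over all genes. That median moved with single arrays: it was -0.32 without metastatic tumour 1, -0.07 without metastatic tumour 2 and -0.04 without non-metastatic tumour 3. No member was called in any of the 21 refits of this comparison.

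The most negative difference was that of Gins1, with 7.05, 5.87 and 6.22 in metastatic tumours and 6.65, 6.67 and 7.44 in non-metastatic tumours, a change of -0.55 (SE 0.37, adjusted p = 0.886). Metastatic tumour 2 was the lowest of the 6 and non-metastatic tumour 3 the highest. Tk1 followed at -0.46 (SE 0.20, adjusted p = 0.882) and Cdc6 at -0.45 (SE 0.33, adjusted p = 0.89). The most positive was E2f2, with 7.81, 6.94 and 6.54 in metastatic tumours and 6.62, 6.62 and 6.69 in non-metastatic tumours. The 3 non-metastatic values lay close together, metastatic tumour 1 stood well above them and metastatic tumour 3 below. The difference was 0.46 (SE 0.29, adjusted p = 0.882). For Blm it was 0.01 (SE 0.26, adjusted p = 0.997) and for the MCM genes between -0.35 and -0.10. A p that misses the threshold with 3 mice against 3 does not show that the tumours are alike in these genes.

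**Figure D4:**
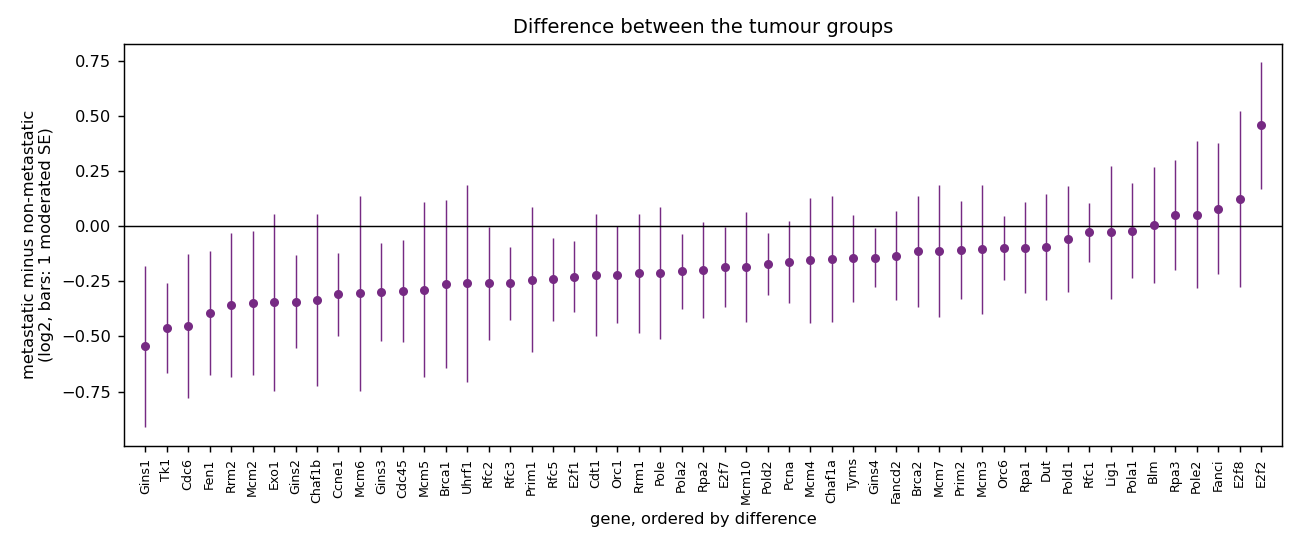
Difference between metastatic and non-metastatic tumours for each of the 53 members, ordered by size, on the log2 scale with bars of 1 moderated SE. Differences run from -0.55 (Gins1) to 0.46 (E2f2), 47 lie below 0, and none passed the test.

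Markers of epithelium moved with the members. Of 13 epithelial markers 8 rose in all tumours against normal gland and 0 fell, where 13.6% of all genes rose and 9.13% fell. Their median change was 1.14, and all 11 adipocyte markers fell, with a median of -4.92. Epcam, a surface protein of epithelial cells, had 11.65, 11.36 and 11.66 in metastatic tumours and 11.79, 11.85 and 11.48 in non-metastatic tumours, against 10.92, 9.81 and 11.07 in normal glands. Adipoq, a hormone of fat cells, had 5.01, 5.89 and 5.69 in metastatic tumours and 7.06, 4.91 and 5.30 in non-metastatic tumours, against 11.05, 11.22 and 10.25 in normal glands. The epithelial count was 3 when normal gland 1 was left out and 4 when normal gland 2 was, and 4 without metastatic tumour 1, metastatic tumour 3 or non-metastatic tumour 2, while all 11 adipocyte calls held without any 1 array. Of 10 lymphocyte markers 3 fell, of 8 endothelial markers 2, of 8 fibroblast markers 2 and of 10 macrophage markers 1, where 9.13% of all genes fell. These counts moved with single arrays. Leaving out normal gland 1 gave 1 lymphocyte marker, leaving out non-metastatic tumour 1 gave 5, and any other array 2 or 3. The endothelial count was 1 with normal gland 2 left out, 3 with normal gland 3 left out, 5 without metastatic tumour 2 or non-metastatic tumour 3, and 2 otherwise. The fibroblast count was 4 without non-metastatic tumour 3, 2 without non-metastatic tumour 2 and 1 without any other array. The macrophage count was 0 without normal gland 1 or 2, 2 without normal gland 3, 3 without non-metastatic tumour 3 and 1 otherwise. With all arrays 0 skeletal muscle, epidermal or milk protein genes were called in limma, with medians of -0.94, -1.03 and 0.52 (1 epidermal gene, and 0 of the other two lists, had an unadjusted p under 0.05). Without normal gland 2 the medians were 0.19, 0.32 and -1.29, and 1 skeletal muscle gene was called higher. The arrays measured pieces of tissue, so fewer cells of a type and less RNA per cell cannot be told apart.

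Array by array, the mean deviation of the epithelial markers was 0.64, 0.01 and 0.34 in metastatic tumours and 0.41, 0.51 and 0.14 in non-metastatic tumours, against -0.56, -1.27 and -0.20 in normal glands. The mean deviation of the members minus that of the epithelial markers, a measure chosen after the data were seen, was -0.14, -0.04 and -0.26 in metastatic tumours and -0.23, -0.23 and 0.50 in non-metastatic tumours, against -0.19, 0.46 and 0.12 in normal glands. On this measure tumours and glands overlapped. The part that the share of epithelial cells has in the members' change was not tested. Normal gland 3 had the highest epithelial and the lowest adipocyte level of the glands. Normal gland 2, with its muscle and epidermal signal, had the lowest epithelial level.

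**Figure D5:**
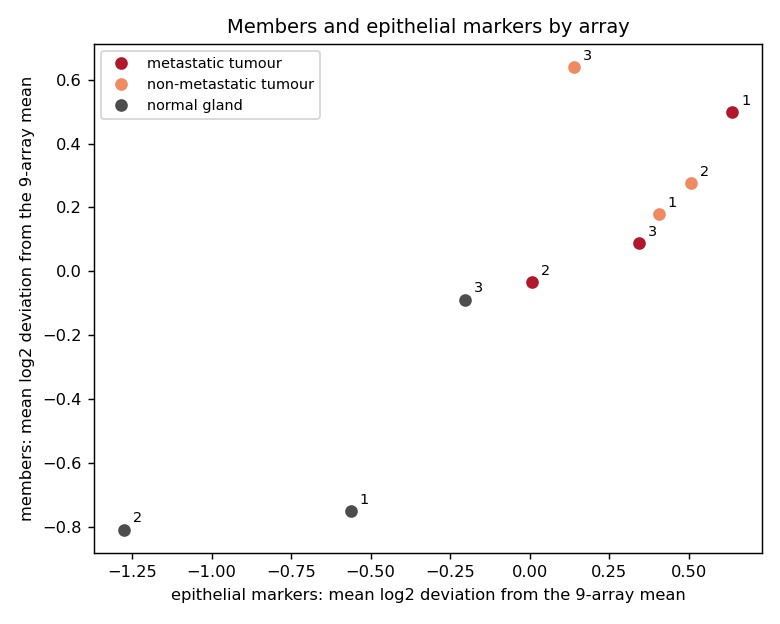
Mean log2 deviation from the 9-array mean of the 53 members (vertical) and of 13 epithelial markers (horizontal), with 1 point per array labelled by replicate number. Normal glands 1 and 2 lie at the lower left (-0.75 and -0.81 for the members), normal gland 3 lies next to metastatic tumour 2 (-0.09 and -0.03), and non-metastatic tumour 3 is highest for the members (0.64) at a middling epithelial level (0.14).

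Each of the 6 lists of pathway genes outside the 55 had a median below the 0.78 of all members, in all tumours against normal gland. Of 32 further replication and fork genes 13 rose and 0 fell, with a median of 0.55. Over all genes 13.6% rose and 9.13% fell. Ticrr, which helps fire origins, had 8.47, 7.36 and 7.85 in metastatic tumours and 7.84, 7.61 and 8.50 in non-metastatic tumours, against 5.78, 5.51 and 7.14 in normal glands and rose by 1.80 (SE 0.40, adjusted p = 0.017). Atad5, which unloads the clamp, had 7.61, 7.29 and 7.70 in metastatic tumours and 7.29, 7.47 and 7.72 in non-metastatic tumours, against 6.20, 6.19 and 6.47 in normal glands. Every tumour exceeded every gland, normal gland 3 included, and it rose by 1.23 (SE 0.14, adjusted p = 0.002). Dbf4, the activator of the kinase Cdc7, and Wdhd1, a fork scaffold, rose by 1.34 (SE 0.27, adjusted p = 0.0124) and 0.97 (SE 0.21, adjusted p = 0.0144). Leaving out normal gland 1, 2 or 3 turned the count of 13 into 4, 5 or 19. Ticrr and Wdhd1 lost their calls without either of the first 2 glands, Dbf4 without normal gland 1, and Atad5 kept its call without any 1 array.

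Of 27 further recombination and Fanconi genes 10 rose and 0 fell, where 13.6% of all genes rose and 9.13% fell. The median was 0.48. Brip1, a helicase that binds Brca1, rose by 1.06 (SE 0.26, adjusted p = 0.0233), and Usp1, which removes ubiquitin from Fancd2, by 0.83 (SE 0.14, adjusted p = 0.00748). The ubiquitin ligase Fancl and its partner enzyme Ube2t rose by 0.75 (SE 0.19, adjusted p = 0.0261) and 0.70 (SE 0.16, adjusted p = 0.0204). Mismatch, excision and end-joining genes, which also act outside S phase, gave 7 higher and 0 lower of 29, with a median of 0.22. Those with the largest rises were Neil3, a glycosylase, at 1.00 (SE 0.24, adjusted p = 0.0205), the end-joining genes Xrcc5 and Xrcc4 at 0.81 (SE 0.14, adjusted p = 0.008) and 0.60 (SE 0.10, adjusted p = 0.00607), and the polymerase gene Polq at 0.73 (SE 0.19, adjusted p = 0.0302). Of 15 checkpoint genes, for kinases and other factors, 9 rose and 0 fell, with a median of 0.46. H2afx, the histone variant marked at breaks, rose by 1.25 (SE 0.34, adjusted p = 0.0352), Chek1, the S-phase checkpoint kinase, by 1.05 (SE 0.30, adjusted p = 0.039), Hus1, a subunit of the checkpoint clamp, by 0.91 (SE 0.13, adjusted p = 0.00382), and Etaa1, an activator of Atr, by 0.85 (SE 0.13, adjusted p = 0.00564). Without normal gland 1 and without normal gland 2 the 3 counts were 5 and 4 for recombination, 3 and 2 for mismatch, excision and end-joining, and 5 and 4 for the checkpoint. The checkpoint count was also 5 without metastatic tumour 1 or 3 or non-metastatic tumour 2 or 3. Usp1, Xrcc5, Xrcc4, Hus1 and Etaa1 kept their calls without any 1 array, and the other named genes of these lists lost theirs without normal gland 1 and without normal gland 2. Brip1 and Fancl also lost theirs without 1 tumour (metastatic 1 for Brip1, non-metastatic 2 for Fancl), and Polq, H2afx and Chek1 without several.

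Among 18 further E2F, DP and pocket protein genes with partners and targets of theirs, 12 rose and 0 fell. The median was 0.55, against 0.47 for the 5 measured E2F and cyclin E members. E2f3, the third activator E2F, had 8.02, 7.88 and 8.11 in metastatic tumours and 8.34, 8.22 and 8.28 in non-metastatic tumours, against 7.07, 7.02 and 7.61 in normal glands. Its tumours lay above its glands without overlap, and the change was 0.91 (SE 0.14, adjusted p = 0.00534), where E2f1 and E2f2 were not called. Ccna2, the S-phase cyclin, rose by 1.74 (SE 0.39, adjusted p = 0.0168), Foxm1, a factor of the later cycle, by 1.12 (SE 0.21, adjusted p = 0.00899), and Lin9, a core subunit of the DREAM complex, by 0.99 (SE 0.22, adjusted p = 0.0176). Of 11 further deoxynucleotide genes 3 rose and 1 fell, where 13.6% of all genes rose and 9.13% fell. The median was 0.29, and the count of 1 fall was near the share over all genes. Dck, which salvages deoxycytidine, Nme1, a nucleoside diphosphate kinase, and Dctd, a deaminase, rose by 1.11 (SE 0.25, adjusted p = 0.0167), 0.95 (SE 0.16, adjusted p = 0.00743) and 0.86 (SE 0.17, adjusted p = 0.0116). Tk2, the thymidine kinase of mitochondria, had 7.96, 7.92 and 7.91 in metastatic tumours and 8.08, 8.02 and 7.76 in non-metastatic tumours, against 8.37, 8.47 and 8.14 in normal glands and fell, with a change of -0.38 (SE 0.11, adjusted p = 0.0368). It thus moved opposite to Tk1, the cytosolic enzyme of S phase. E2f3, Foxm1, Lin9 and Nme1 kept their calls without any 1 array, Ccna2 and Dctd lost theirs without normal gland 1, Dck without normal gland 1 or 2, and Tk2 without any 1 array other than normal gland 3 and non-metastatic tumour 1. Leaving out normal gland 1 or 2 turned the count of 12 into 4 or 5, and that of 3 into 1 or 2. Between metastatic and non-metastatic tumours 0 genes of the 6 pathway lists were called in limma, where 1 of 17478 genes was. The tumour groups overlapped in 27 of 32 replication, 26 of 27 recombination and 24 of 29 mismatch, excision and end-joining genes. They also overlapped in 13 of 15 checkpoint, 13 of 18 E2F and 9 of 11 deoxynucleotide genes. Over all genes tested, 10.3% did not overlap.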

How the data were processed

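RNA of 9 mice was measured on 9 Affymetrix Mouse Gene 2.0 ST arrays. The deposited values are log2 intensities made by the authors with RMA, per the submitters' processing notes; its version and probe set level are not given in the sources used here. They were not normalised further, and scanner files were not used here. Of 41345 probe sets, 23521 carried 1 gene symbol in the platform annotation, 1814 carried several and 16010 were not listed. These gave 22180 genes, each by its probe set with the highest mean, and the 17478 that exceeded the 30th percentile of the array in 3 or more arrays were tested. One mean per title group was fitted to all 9 arrays with limma 3.58.1 (R 4.3.3, lmFit and eBayes, 6 residual degrees of freedom), two-sided, with Benjamini-Hochberg adjustment over all genes in each of 4 contrasts and a threshold of 0.05. The fit was tested on simulated data with 200 changed genes. The precision is limited by the number of arrays, which have no depth. Members, roles, lists and tests were chosen with earlier results of these data known. Any member could be named; from each pathway list, up to 4 called genes with the largest change in either direction were named, with Tk2 as the only one that fell. Epcam and Adipoq stand for their marker lists. Alternatives changed the filter, the choice of probe set, the scaling, the eBayes options, the weights, the samples in the fit, the block, the age term and the threshold, and left out each array in turn. Promoter windows are RefSeq's, and 10 members had none.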

Additional observations from a re-analysis of the deposited data

Results flagged for a closer look

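Both results given here come from probe sets outside the comparisons, each of which carries the symbols of a pair of neighbouring genes. Shared probe sets of Mcm7 and Tyms, which did not pass the test, are given under the other observations. The probe set shared by Rfc4, a clamp loader subunit, and Eif4a2, a translation factor, had 9.14, 8.24 and 8.61 in metastatic tumours and 8.48, 8.88 and 8.98 in non-metastatic tumours, against 7.10, 7.05 and 7.80 in normal glands. All tumours lay above all glands, and the change was 1.41 (SE 0.24, adjusted p = 0.0129 in limma). The probe set shared by Ccne2, cyclin E2, and Ints8, a subunit of the Integrator complex, had 7.57, 7.18 and 7.18 in metastatic tumours and 7.01, 7.58 and 7.82 in non-metastatic tumours, against 6.26, 6.49 and 6.77 in normal glands. It changed by 0.88 (SE 0.20, adjusted p = 0.0309 in limma), again without overlap. Which gene of each pair gave the signal cannot be told apart. Shared and second probe sets, here and under the other observations, come from a separate limma fit of the same groups to all probe sets. Their adjusted p-values are therefore not directly comparable with those of the members.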

How the results depend on the processing

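No change of a member turned its sign with a call in the 20 refits of each comparison with normal gland, and 0 members were called in the 21 refits between the tumour groups. Counts against normal gland moved more. With the array named in turn left out, members called ranged from 0 to 34 for metastatic tumours, 1 to 43 for non-metastatic tumours and 3 to 44 for all tumours, and all genes called from 627 to 2832, 1345 to 3714 and 1898 to 4117, and from 0 to 40 between the tumour groups. Array weights gave normal gland 1 a weight of 7.50 against 0.44 to 1.79 elsewhere. With them 49 members were called for metastatic and 46 for non-metastatic tumours, and 6498, 5360 and 7603 genes in all for metastatic, non-metastatic and all tumours. When the fit held just the groups compared, 6 members were called for metastatic and 9 for non-metastatic tumours, 1533 genes in all for non-metastatic tumours and 0 between the tumour groups. That last count was also 0 with age at collection as a covariate among tumours. Without the filter 7 members were called for metastatic tumours. Counts over all genes are not given for every refit named here or below, and a member count without one cannot be read alone. An adjusted p under 0.1 gave 24 members and 3839 genes there. A minimum log2 change of 1 left 6, 17 and 18 members for metastatic, non-metastatic and all tumours, and 966, 1215 and 1202 genes. Median centring called 43 members in all tumours and split all genes into 3283 higher and 1303 lower, against 2385 and 1595 in the values as deposited. It split them into 1728 and 848 for metastatic tumours, against 1284 and 1048, and into 2900 and 1078 for non-metastatic tumours, against 1959 and 1329.

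Replicate numbers did not pair the mice: arrays of the same number in different groups correlated at -0.281 to 0.171 in their deviations. With the number as a block, 3 members (Blm, Brca2 and Dut) and 1299 genes were called for metastatic tumours, and 31 members for all tumours. With 3 mice in a group, 1 mouse can decide a call, and age differs between tumours and glands throughout. Single genes that lost their calls did so for causes that were not tested.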

Other observations

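Several members have further probe sets with lower means, none of which passed the test. The second probe set of Fen1 had 5.75, 5.79 and 5.87 in metastatic tumours and 5.79, 5.78 and 5.79 in non-metastatic tumours, against 5.95, 5.62 and 5.84 in normal glands, a change of -0.01 (adjusted p = 0.965 in limma). The second probe set of Dut had 5.11, 5.09 and 5.31 in metastatic tumours and 5.09, 4.75 and 5.28 in non-metastatic tumours, against 4.85, 5.03 and 5.31 in normal glands, a change of 0.04 (adjusted p = 0.901), although Dut itself was called. All of the second probe sets of Dut, Fen1, Pole, Rpa1 and Rrm2 had log2 levels below 6 on every array, that of Rrm2 between 3.54 and 4.38. That of Rpa3 had 8.12, 7.63 and 7.46 in metastatic tumours and 7.92, 8.19 and 7.93 in non-metastatic tumours, against 7.39, 7.21 and 7.87 in normal glands, with a change of 0.38 (adjusted p = 0.251). That of Rrm2 changed by 0.35 (adjusted p = 0.196), at its low levels. Both changes are positive, like those of the probe sets that stood for these genes. Mcm7 and Tyms also have probe sets that carry a further symbol. That of Mir93 and Mcm7, at levels of 3.64 to 4.17, had all tumours below all glands. It changed by -0.33 (adjusted p = 0.0581 in limma), opposite to the probe set that stood for Mcm7. That of Mir25 and Mcm7 changed by 0.06 (adjusted p = 0.819) and that of Tyms-ps and Tyms by -0.13 (adjusted p = 0.58). What these probe sets match was not tested.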
